A study of Homo sapiens with 79 samples.

Results

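HOX genes encode homeodomain transcription factors that lie in 4 clusters in the human genome, HOXA on chromosome 7, HOXB on chromosome 17, HOXC on chromosome 12 and HOXD on chromosome 2. Rows were taken whose whole name is HOX, a cluster letter and a paralog number, with antisense rows left out. The listed set named 38 genes, and 27 of them had a row among the 24414 rows of the count table other than the spike-in row: 8 HOXA, 9 HOXB, 6 HOXC and 4 HOXD genes. The listed genes span chr7:27100354-27200091, chr17:48528526-48728750, chr12:53938831-54056030 and chr2:176092721-176190907 in GENCODE 44 on GRCh38. HOXA11, HOXA13, HOXB13, HOXC10, HOXC12, HOXC13, HOXD1, HOXD10, HOXD11, HOXD12 and HOXD13 were not analysed here.

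Within a cluster the genes run in the order of their numbers. Low-numbered genes are known for expression from the hindbrain backwards, and high-numbered genes for expression in the trunk and tail, so that the set of HOX genes in a cell records its level along the body axis. The eye and the forebrain form in front of the HOX domain, and retinoic acid is a classical inducer of HOX genes in cultured stem cells. HOX proteins bind DNA together with partners of the TALE class, the PBX, MEIS and PKNOX proteins.

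Single cells of retinal organoids were profiled at day 60, day 90 and day 200 of differentiation. The organoids were grown from the CRX-GFP reporter derivative of H9, a human embryonic stem cell line. Every group had received the ROCK inhibitor Y27632 at the start and later foetal calf serum, T3, taurine and retinoic acid, so no group lacked retinoic acid. Day 60 (578 cells) and day 90 (661 cells) were each run on 1 microfluidic chip and day 200 on 2 chips, chip a (356 cells) and chip b (381 cells), with 19 or 20 chip columns as the deposited samples. Columns of a chip and cells of a column share their organoids and their run, so no test between days was possible and values are given with intervals for counting error.

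The chips held 104935384, 115731787, 96640680 and 89204989 reads in the order day 60, day 90, day 200 chip a and chip b. Median reads per cell were 164352, 160343, 251929 and 212201, and 6 cells of day 90 lay below 50000 reads. On each chip almost no row had reads in 1 to 4 cells, whereas 754 to 1123 rows had reads in exactly 5, so a HOX gene listed at 0 on a chip may have had reads in fewer than 5 cells there. For this reason no fold of a single gene is given against a chip where it is listed at 0. Chip, day and organoid batch cannot be told apart at day 60 and day 90. Per the methods, day 90 was run first, with more spike-in RNA than the later runs. Its cells were kept up to a higher share of spike-in reads, and day 60 cells from a lower read count. The lowest cell had 88192, 7549, 127130 and 125646 reads in the order of the chips. These settings cannot be told apart from day either.

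The windows upstream of the transcription start are shown for 4 members, because they hold the letters that relate to HOX proteins themselves or serve 2 members at once. RefSeq windows (GRCh38.p14) of 300 bases, 250 before and 50 after a start, were at hand for 13 of the 27 members, 20 windows in all, and the bases before the start are printed. The letters TGATNNAT, a pairing of PBX and HOX half-sites, stand in capitals and were found on either strand in the windows of HOXA2 and HOXB1. They occurred in 7.4% of all 35116 promoters. The retinoic acid receptor half-site AGGTCA was in 0 of the 20 windows, against 13.8% of all promoters, and TATAAA was in 4 windows (HOXA3, HOXA9 and HOXA10), against 11.5%. The window of HOXC4 (chr12:54016638-54016887, plus strand) is also the window listed for HOXC5 and holds none of the 3 motifs. HOXA2 is read from the minus strand at chr7:27102684-27102933 and HOXB1 from the minus strand at chr17:48531012-48531261.
HOXA2: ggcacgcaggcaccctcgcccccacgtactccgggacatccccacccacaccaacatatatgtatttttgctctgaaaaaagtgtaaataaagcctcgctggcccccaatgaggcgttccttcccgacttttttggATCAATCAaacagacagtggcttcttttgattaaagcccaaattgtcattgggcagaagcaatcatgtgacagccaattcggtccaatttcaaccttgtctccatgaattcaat
HOXB1: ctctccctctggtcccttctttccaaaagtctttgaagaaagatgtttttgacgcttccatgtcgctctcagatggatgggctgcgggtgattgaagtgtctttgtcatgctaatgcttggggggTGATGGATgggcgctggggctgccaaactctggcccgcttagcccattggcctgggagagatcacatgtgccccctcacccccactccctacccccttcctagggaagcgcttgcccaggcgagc
HOXC4 and HOXC5: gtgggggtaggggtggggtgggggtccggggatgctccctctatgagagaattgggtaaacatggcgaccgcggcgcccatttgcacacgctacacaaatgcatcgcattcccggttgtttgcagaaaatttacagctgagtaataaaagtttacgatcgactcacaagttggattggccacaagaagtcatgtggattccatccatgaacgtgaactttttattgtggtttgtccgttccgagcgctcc

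HOX reads were highest at day 60. Summed over the 27 members they made 955 CPM (reads per 1000000 reads of the chip, with an exact 95% Poisson interval of 949 to 961) at day 60, 134 (132 to 136) at day 90, 128 (126 to 131) on day 200 chip a and 374 (370 to 378) on chip b. The day 60 sum was thus 7.12 times that of day 90, 7.43 times that of chip a and 2.56 times that of chip b. The columns of day 60 ran from 562 to 1443 CPM with a median of 943. Those of day 90 ran from 9.01 to 463 with a median of 108, those of chip a from 0.212 to 379 with a median of 112, and those of chip b from 102 to 998 with a median of 368. No day 90 or chip a column reached the lowest day 60 column, while columns of chip b overlapped those of day 60. The 2 day 200 chips differed from each other by more than chip a differed from day 90, so a single level for day 200 is not given.

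**Figure D1:**
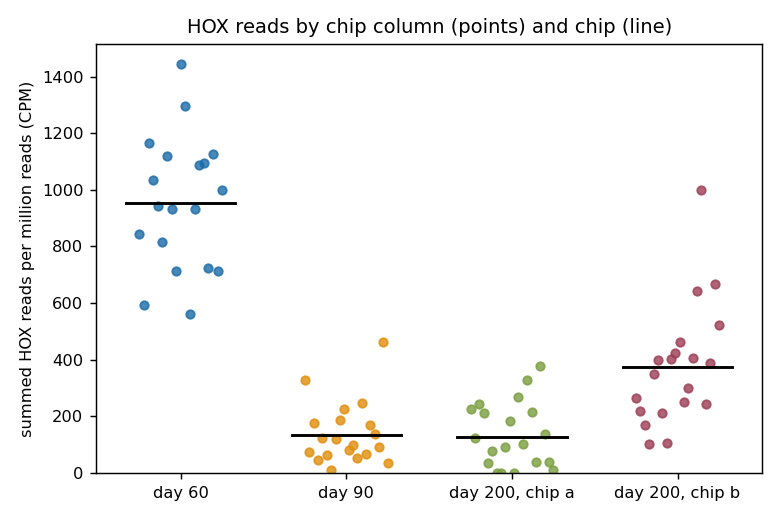
Summed HOX reads (vertical axis, CPM) in each chip column (points) of the 4 chips (horizontal axis), with the value of the whole chip as a line. Every day 60 column lay at or above 562 CPM, the day 90 and chip a columns at or below 463, and chip b between 102 and 998.

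The reads came from a minority of cells on the later chips. The tenth of cells with most HOX reads held 48.6% of them at day 60, 91.8% at day 90, 97.7% and 69.5% on chips a and b. The single highest cell held 2.5%, 8.46%, 7.16% and 7.05% of the HOX reads in the same order. Without the highest column the sums were 926, 124, 118 and 349 CPM, so no single column made the level of a chip.

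Among genes with a mean of at least 1 CPM over the chips, 18 HOX members could be compared with day 60. Of these, 15 were listed above 0 both at day 60 and at day 90, and all 15 were at least 2-fold lower at day 90 (log2 of CPM plus 1), beside 8.46% of all genes above 0 on both. On chip a 12 of 13 such members were lower beside 9.95%, and on chip b 11 of 18 beside 5.89%. With genes listed at 0 on the later chip included, for which the call rests on the pseudocount, the counts were 18 of 18 at day 90 beside 8.84% of the 16689 genes tested, 17 of 18 on chip a beside 18.2%, 11 of 18 on chip b beside 8.07% and 14 of 18 with both day 200 chips summed beside 9.16%. None of the 18 was at least 2-fold higher on any of them, where 12.3% of all genes were at day 90, 14.2% on chip a, 12.8% on chip b and 13.1% with both chips summed. The mean of at least 1 CPM counts day 60, which favours a lower call for genes that passed through day 60 alone. With the mean taken over the 3 later chips only, 16 members remained, and 16, 15 and 10 of them were lower at day 90 and on chips a and b, beside 7.6%, 15.7% and 6.31% of all genes. The 7 members that stayed within 2-fold on chip b were HOXB2, HOXB6, HOXB7, HOXC4, HOXC9, HOXA6 and HOXD8. One cell held 44.3% of the HOXC9 reads of chip b and another 55.7% of those of HOXD8, and without these cells the levels went from 2.28 to 1.27 CPM and from 5.87 to 2.61.

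Members of the HOXB cluster gave most HOX reads on every chip. HOXB held 73.6% of HOX reads at day 60, 78.3% at day 90, 76.8% and 74.8% on chips a and b. HOXA held 18.2%, 16.1%, 4.69% and 15.3%, and HOXC 7.33%, 5.19%, 18.5% and 8.32%. HOXD held 0.953% at day 60, 0.335% at day 90 and 1.57% on chip b, and its 4 members were listed at 0 on chip a. The order of clusters thus was the same on 3 chips, and on chip a HOXC stood above HOXA.

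By paralog number the reads lay toward the low-numbered end. Groups 1 to 5 held 75.2%, 82.1%, 68.6% and 69.2% of the HOX reads in the order of the chips. Groups 6 to 8 held 18.4%, 15.8%, 27.3% and 26.8%, and groups 9 to 13 held 6.4%, 2.03%, 4.11% and 4.0%. The only members above group 9 with reads were HOXA10, a gene of the lumbar level, in 8 cells of day 60, and HOXC11, in 6 cells of day 90 with at most 7 reads in a cell.

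**Figure D2:**
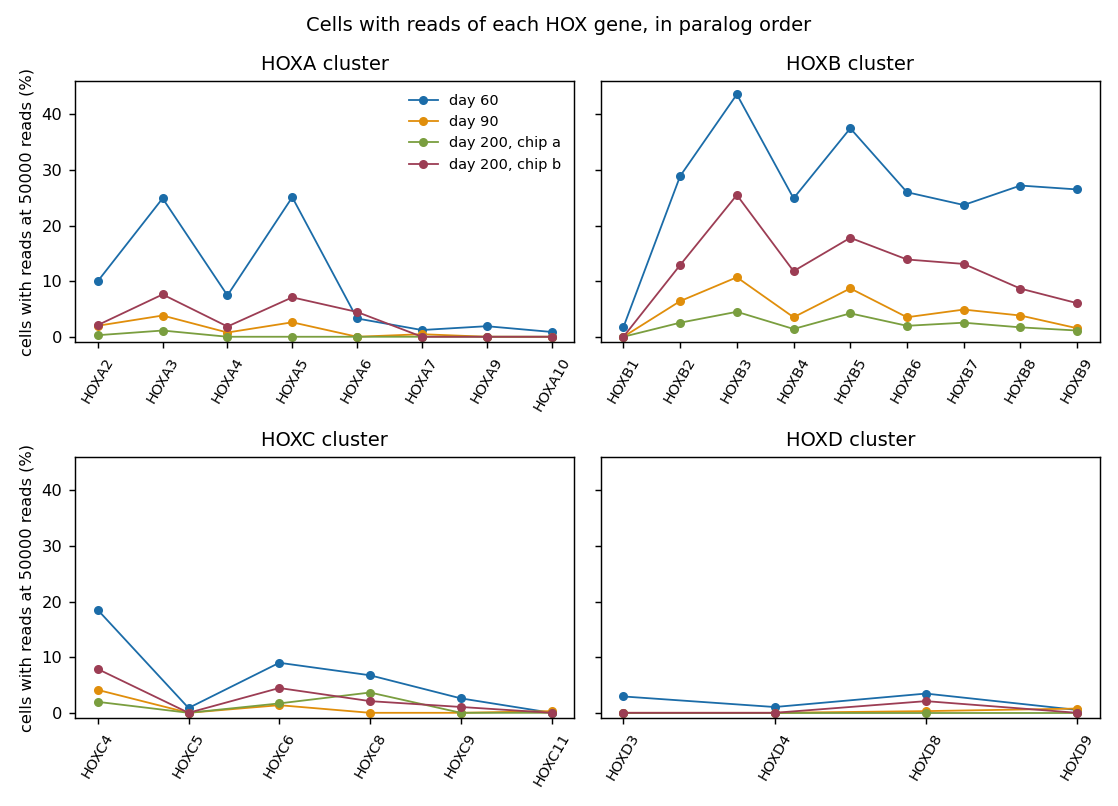
Percent of cells with reads of each HOX gene after thinning to 50000 reads per cell (vertical axis) for the members of the 4 clusters in paralog order (horizontal axis), 1 line per chip. HOXB3 reached 43.6% of day 60 cells and HOXA5 25.1%, while HOXB1 stayed at 1.73%.

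The 8 members with the highest day 60 level per kilobase of exon are described in turn, the other members by their range. The level per kilobase assumes reads spread along the whole transcript, which was not tested, and another spread would change the order. By reads alone HOXA3 stood in place 4, against place 11 per kilobase. HOXB5, a gene of the cervical and brachial level that also acts in enteric neural crest, stood first by reads and by length, with 249 CPM and 134 CPM per kilobase at day 60. It had reads in 268 of 578 cells, and its columns ran from 110 to 582 CPM with a median of 237. It was at 39.1 CPM at day 90, 39.1 and 63.9 on chips a and b. One cell held 24% of the HOXB5 reads of day 90, and without it the level was 29.8 CPM. Exons of HOXB5 overlap the opposite strand's HOXB-AS3 over 3.93% of their length, and no strand setting was stated for the counting.

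HOXB3, active from the hindbrain backwards, was the most widely detected member. It had reads in 294 cells of day 60 at 180.0 CPM (24.3 per kilobase), with columns from 68 to 327 and a median of 193. It was at 31.9 CPM at day 90 and 22.8 on chip a, and stood at 86.8 CPM in 113 of 381 cells on chip b. Its neighbour HOXB4, known for hindbrain expression and for its action in blood stem cells, was at 44.8 CPM (22.4 per kilobase) at day 60, with columns from 17.4 to 105 and a median of 41.7. HOXB4 was at 5.3, 4.62 and 15.8 CPM on the later chips, where 6 cells carried it on chip a, 1 of them with 55.2% of the reads (2.07 CPM without it). Both genes thus had every day 60 column above 0 and the chip b level closest to it.

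HOXA5, which patterns cervical segments and the respiratory tract, was the leading member outside HOXB. Its day 60 level was 85.1 CPM (49.5 per kilobase) in 181 cells, with columns from 25.5 to 146 and a median of 78.2. It was at 6.74 CPM at day 90 in 24 cells (4.11 without the highest cell), listed at 0 on chip a and at 30.0 CPM on chip b in 35 cells, 1 column of which reached 242. HOXA5 was thus seen on 1 of the 2 day 200 chips only.

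HOXB6, HOXB7, HOXB8 and HOXB9 pattern the trunk. At day 60 HOXB7 was at 45.3 CPM (29.8 per kilobase; columns 16.8 to 82, median 48.6), and HOXB8 was at 48.9 (20.4; 11.8 to 136, median 46.2). HOXB9 was at 50.1 CPM (19.4 per kilobase, columns 16.8 to 96.1, median 48.4) and HOXB6 at 47.1 (18.1, columns 14.9 to 90.3, median 49). The 4 genes thus lay close together at day 60, within the spread of their columns, and parted later. HOXB7 kept most on chip b, at 36.3 CPM in 56 cells against 11 at day 90 and 13.9 on chip a. HOXB6 was at 28.5 CPM on chip b after 2.76 at day 90 and 4.77 on chip a. HOXB8 was at 5.06, 2.97 and 15 CPM and HOXB9 at 2.28, 5.28 and 12.7 on the 3 later chips, both lower than HOXB6 and HOXB7 on chip b. Single cells held 53.3% of the HOXB8 and 56.1% of the HOXB9 reads of chip a, and the levels without them were 1.39 and 2.33 CPM. At day 90 the HOXB9 level without its highest cell was 1.31 CPM. Exons of HOXB6 overlap other annotated genes over 32.9% of their length, while HOXB7, HOXB8 and HOXB9 overlap none.

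Of the other members, HOXA3, which acts in pharyngeal arches and hindbrain, had 54.8 CPM at day 60 in 175 cells, and HOXC4 had 37.7 in 143 cells. HOXA2, which sets the identity of the second pharyngeal arch, was at 16.6 CPM in 77 cells at day 60 and at 2.93 to 5.75 later. On chip a, 273 of its 283 reads were in 1 cell. HOXC6, HOXC8 and HOXC9, known from motor neurons of the brachial and thoracic cord, were at 11.9, 14.1 and 5.13 CPM at day 60. HOXC8 was listed at 0 at day 90 yet had 10.6 CPM in 20 cells on chip a, the only member with a higher level on chip a than on chip b (5.3 CPM, or 2.61 without the highest cell). HOXB1, whose product patterns the hindbrain and the facial nerve, had reads in 14 cells of day 60 only. HOXA7 lay below 1 CPM on every chip, and 62.5% of its exon length overlaps genes of the opposite strand. For HOXC5, 67.3% of the exon length overlaps another gene on its own strand, so its 7 cells at day 60 are uncertain.

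Counted per cell after thinning each cell to 50000 reads, 257 of 578 day 60 cells (44.5%, exact binomial interval 40.4 to 48.6) had reads of at least 3 HOX genes, and are called HOX-positive here. The share was 48 of 655 (7.33%, 5.45 to 9.6) at day 90, 13 of 356 (3.65%, 1.96 to 6.16) on chip a and 84 of 381 (22%, 18 to 26.6) on chip b. Without thinning it was 53.8%, 10.1%, 4.49% and 26.2%. Columns ran from 21.2% to 61.3% at day 60, from 0.0% to 21.2% at day 90, from 0.0% to 16.7% on chip a and from 5.0% to 50% on chip b. The number of HOX genes is a range without a gap, and 57 cells of day 60 had 2 genes and 28 had 3. Day 60 cells reached 17 HOX genes, and 119 of them had 8 or more, against 3, 0 and 20 cells on the later chips.

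**Figure D3:**
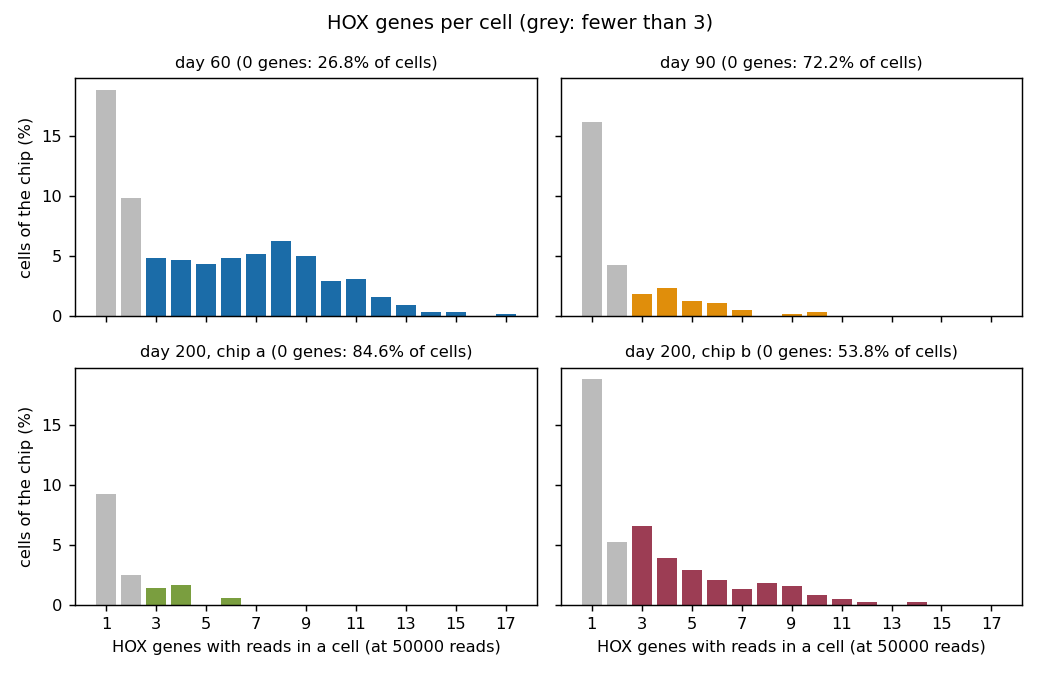
Percent of a chip's cells (vertical axis) by the number of HOX genes with reads after thinning to 50000 reads (horizontal axis), 1 panel per chip, with cells of 1 or 2 genes in grey and cells without any given in the panel title. Day 60 shows a broad rise around 8 genes (119 cells with 8 or more), and 84.6% of chip a cells had none.

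The genes of a HOX-positive cell usually came from more than 1 cluster. At day 60, HOXB genes were detected in 256 of the 257 HOX-positive cells, and HOXA genes in 206. HOXC genes were detected in 51.4% and HOXD genes in 15.6% of them. In 27 cells HOXB was the only cluster, and 1 cell had HOXC without HOXB. On chip b, 34 of 84 HOX-positive cells had HOXB alone. The highest paralog group in the cell was 9 or more in 150 of 257 cells (58.4%) at day 60, but in 10 of 48 at day 90, 2 of 13 and 19 of 84 on chips a and b. Of the 186 day 60 cells with HOXB9 reads, 156 also had HOXB3, and of the 198 with HOXB2, 149 had HOXB3. Detection depends on the reads of each gene, so these pairs are a description with no test.

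Cells were grouped into classes by clustering without any HOX row, and classes named by a marker list end in -like. The class named cluster 8-like, after a marker list that carries no cell type, was led by GFAP, S100B, PAMR1 and RFX4. The marker lists were made by the study from these same cells, so a class name is no independent evidence of a cell type. HOXB5 and HOXB-AS3 were among the study's markers and were taken out of the lists. The RGCs and cluster 8 lists then held 9 genes and the others 10, so HOX rows had marked the study clusters behind these names. All 49 cluster 8-like cells on the 4 chips were HOX-positive, 22 at day 60, 7 at day 90, 1 and 19 on chips a and b. Its HOX level was 1781 CPM at day 60, 1606 at day 90 and 2742 on chip b, each above the day 60 level of the whole chip. These cells were 1.06% of day 90 cells and held 17.4% of its HOX reads, and 4.99% of chip b cells with 31.1%. HOXB3 had reads in 22 of the 22 cells at day 60, HOXA3 in 20 and HOXB9 in 18. HOXB3 stood at 549 CPM in this class at day 60 and at 615 on chip b, HOXA5 at 156 and 445, and HOXB5 at 186 and 214. Its marker list includes SKAP2, a neighbour of HOXA described further on.

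The RGCs-like class, named by the neuronal genes of its list such as STMN2, NEFL and NEFM, held 45.3% of day 60 HOX reads in 14.7% of the cells. SKAP1, a neighbour of HOXB described further on, was among the genes that led this class. Of its cells, 80 of 85 were HOX-positive at day 60 (94.1%, 86.8 to 98.1), 8 of 27 at day 90, 0 of 8 and 10 of 20 on chips a and b. Its HOX level was 3122 CPM at day 60, 794 at day 90, 1.36 and 1432 on chips a and b. HOXB5 reached 902 CPM there at day 60, HOXB3 475, HOXA5 342 and HOXC4 154. Of 6 listed genes of retinal ganglion cells, 5 had a row. In the same 85 cells they had reads in 24 (SNCG), 10 (ATOH7), 10 (RBPMS), 5 (POU4F2) and 4 cells (ISL1). Of 20 listed genes of hindbrain and spinal cord neurons, 14 had a row. Among these 14, PAX2 had reads in 33 cells, LHX5 in 13, LHX1 in 11 and LBX1 in 11, and the others in 0 to 4 cells. PAX2, which also marks the optic stalk, was seen at a similar share in Müller glia-like cells (36.4%, against 38.8%). PAX6 had reads in 64 of the 85 cells and SIX3 in 58, so retinal and forebrain transcripts were present in this class too. Median reads per cell in it at day 60 were 146575.

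HOX reads were also present in other classes at day 60. Of Müller glia-like cells 48 of 140 (34.3%, 26.5 to 42.8) were HOX-positive at day 60, against 5 of 124, 2 of 99 and 4 of 71 later. For Rods-like cells led by VSX1, the counts were 21 of 62, 10 of 62, 0 of 46 and 1 of 46, and for Mitotic-like cells 20 of 64, 2 of 23, 0 of 9 and 2 of 8. The rod markers GNAT1 and RP1 were listed at 0 at day 60, so the class led by VSX1 is not shown to be rods there. Its retinal ganglion cell genes summed to 405 CPM at day 60, against 87.9 in RGCs-like cells. The HOX level of Müller glia-like cells was 635 CPM at day 60 and 56.4, 115 and 108 later. ECM-like cells, which carry matrix genes such as COL3A1 and MGP, were HOX-positive in 11 of 16, 6 of 30, 1 of 6 and 8 of 31. In these ECM-like cells HOXA held more HOX reads than HOXB at day 60 (49% against 38.4% in the 11 positive cells), unlike the chip as a whole. The same held for 6 positive ECM-like cells of day 90 (61.4% against 26.3%) and 7 positive Cones-like cells of day 60 (50.8% against 48.2%). In 8 positive ECM-like cells of chip b HOXB was ahead, with 72.6% against 18.2%. An unnamed cluster led by IGFBP6 had 30 of 81 cells on chip b, 12 of 26 at day 60, 5 of 39 at day 90 and 3 of 16 on chip a. Its day 60 share depended on the clustering, being 14.3% of 14 cells with HOX genes among the variable genes, and the cluster was not found without integration. An unnamed cluster led by GDF15 had 33 of 94, 2 of 100, 4 of 69 and 6 of 46.

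Cones and retinal pigment epithelium served as the comparison, since HOX genes are not known from them. Of Cones-like cells 7 of 46 (15.2%, 6.34 to 28.9) were HOX-positive at day 60, with a median of 198357 reads per cell, and 2 of 104, 2 of 61 and 2 of 28 later. Of RPE-like cells 1 of 78 (1.28%, 0.0325 to 6.94) was at day 90, with a median of 186697 reads. At day 60 it was 1 of 4, and on chips a and b 0 of 9 and 1 of 6. The HOX level was 157 CPM for Cones-like cells at day 60. For RPE-like cells it was 233 CPM at day 60 and 16.3 at day 90. The 4 RPE-like cells of day 60 are too few to set a level for that day. The shares of Müller glia-like, RGCs-like and cluster 8-like cells at day 60 lay above that of Cones-like cells. Median depth was lower than in Cones-like cells in each of them, though only slightly in cluster 8-like cells (194573 reads). The intervals of Müller glia-like and Cones-like cells overlapped, between 26.5% and 28.9%, whereas those of the other 2 classes did not reach the Cones-like interval. After day 60 the intervals of Müller glia-like and Cones-like shares overlapped on each chip, so a difference was not detectable at this depth, and the HOX level of Cones-like cells was 53, 104 and 123 CPM on the later chips. Counted without thinning and with at least 5 reads for a gene, 80 RGCs-like and 38 Müller glia-like cells of day 60 had at least 3 HOX genes. In Cones-like cells of day 60 the number was 5. These counts use all reads of a cell, so they are not a stricter form of the thinned shares.

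**Figure D4:**
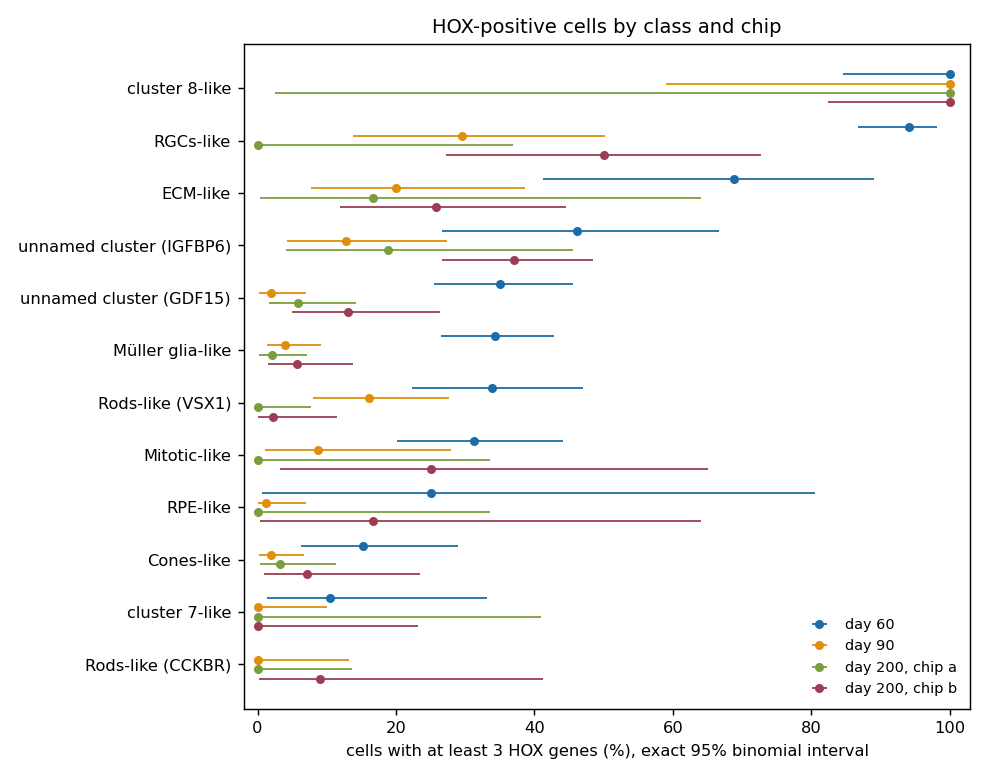
Percent of cells with at least 3 HOX genes (horizontal axis) in each class of cells (vertical axis), 1 point per chip, with exact 95% binomial intervals for counting error. All cluster 8-like cells were positive on every chip, RGCs-like cells went from 94.1% at day 60 to 29.6% at day 90 and 50% on chip b, and Müller glia-like cells from 34.3% to at most 5.63%.

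HOX-positive cells of day 60 (257) were next set against the 155 cells with no HOX gene. Of all genes with reads at day 60, 13.6% were at least 2-fold higher in the positive cells and 6.83% at least 2-fold lower. The lists that follow are counted over their genes with a row only. These were 10 of 28 noncoding genes, 10 of 13 upstream regulators, 15 of 17 retinoic acid genes and 14 of 20 hindbrain and spinal cord genes. They also were 9 of 10 forebrain and midbrain, 5 of 6 retinal ganglion cell and 6 of 8 mesenchyme and neural crest genes. Of the noncoding rows inside the HOX clusters, among them the microRNA row MIR10B, 10 of 10 were higher, at 719 against 11.3 CPM in sum. HOXB-AS2, HAGLR, HAGLROS and MIR10B had no reads in the negative cells, so their call rests on the pseudocount. HOXB-AS3 led them with 560.0 against 8.13 CPM, followed by HOXA-AS2 with 42.1 against 0.0695 and HOTAIRM1 with 41.4 against 1.74. Over all cells HOXB-AS3 went from 256 CPM at day 60 to 25, 7.28 and 41.2 on the later chips. These rows were thus highest where the coding members were. Without a strand setting, reads of a coding gene and its antisense row cannot be told apart where they overlap.

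Of 9 TALE partners, 4 were at least 2-fold higher in the positive cells and none lower. PBX3 was at 180.0 against 32.1 CPM and MEIS2 at 224 against 69.3, while MEIS1 was at 145 against 124. Of the upstream regulators of HOX genes, 3 of 10 were higher and 1 lower. BMI1, a Polycomb protein, was at 22.6 against 9.93 CPM, while EGR2 was lower at 18.5 against 46.6. KMT2A was at 343 against 285 CPM.

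Of 15 genes of the retinoic acid pathway, 3 were higher and 3 lower. CYP26B1, which degrades retinoic acid, was at 263 against 27 CPM, DHRS3, a retinaldehyde reductase, at 642 against 253, and the receptor gene RARB at 78.8 against 21.8. The second degrading enzyme CYP26A1 was at 607 against 734 CPM. The lower genes were ALDH1A1, RARG and RXRG, each at most 14.3 CPM in either group.

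Of the 14 genes of hindbrain and spinal cord neurons with a row, 10 were higher and none lower, at 95.1 against 28.9 CPM in sum. TLX3, TAL1, EVX1, MNX1, DRGX and CHAT were listed too but had no row. PAX2, the highest, was at 37.8 against 16.1 CPM, and PHOX2A was listed at 0. GATA3 was at 16.9 against 0.104, with 84.0 CPM in cluster 8-like cells from 2 of 22 cells. Calls such as LMX1B (1.44 CPM against none), NKX6-1 (2.11 against 0.104) and LHX1 (2.24 against 0.0347) lean on the pseudocount. Later chips had fewer of the 14 with reads. Day 90 gave 3 higher and 3 lower, and either day 200 chip 1 higher and 2 lower. Listed at 0 were 4 of the 14 for day 90, 10 for chip a, which had 13 positive cells, and 9 for chip b. The share over all genes was taken for day 60 only. The later counts thus have no background beside them, and no excess or lack is read from them. Sums stayed higher in positive cells, with 38.4 against 19.7 CPM for day 90, 51.5 against 16.8 for chip a and 40.6 against 31.8 for chip b. Of 9 genes of neurons of any kind, 5 were higher at day 60, with DCX at 718 against 199 CPM and STMN2 at 819 against 391. Of 9 genes of the forebrain and midbrain, 2 were listed at 0, 1 was higher and 2 lower, among them OTX2 at 49.6 against 115. None of 5 retinal ganglion cell genes passed 2-fold in either direction, at 79.7 against 81.1 CPM in sum. Of 6 genes of mesenchyme and neural crest, 1 was higher, TFAP2B at 9.53 against 0.0695 CPM, and 1 lower. Matrix genes were higher as well. Of the 10 genes of the study's ECM marker list, 7 were higher, none lower and 2 listed at 0. They summed to 3192 against 920 CPM, of which MGP made 1411 and 299.

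Retinal genes were lower in the HOX-positive cells but not absent. Of 9 genes of retinal identity, 3 were at least 2-fold lower and none higher, at 920 against 1743 CPM in sum. Among them were SIX6 (75.6 against 227 CPM) and RAX (94.6 against 223). Of day 60 cells with no HOX gene, 93.5% had reads of at least 2 of the 9 genes, against 92.2% of cells with 1 or 2 HOX genes, 80.4% with 3 to 7 and 67.2% (58 to 75.6) with 8 or more. On chip b the shares were 94.6%, 94.6%, 82.8% and 50% (10 of 20 cells, 27.2 to 72.8). At day 90 they were 93.7%, 94.8% and 91.1%, with 2 of 3 cells for 8 or more. On chip a they were 88.0%, 85.7% and 84.6%, and no cell had 8 or more. The intervals for 0 and for 3 to 7 genes overlapped at day 90 and on chip a, so a fall was not clear there. Median reads per cell in these groups were 161116 to 168030 at day 60.

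**Figure D5:**
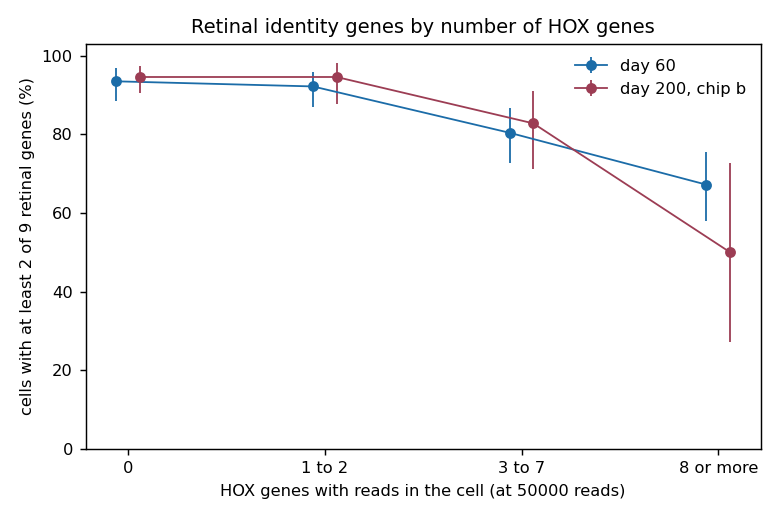
Percent of cells with reads of at least 2 of 9 retinal identity genes (vertical axis) by number of HOX genes in the cell (horizontal axis) at day 60 and on day 200 chip b, with exact 95% binomial intervals. The share went from 93.5% to 67.2% at day 60 and from 94.6% to 50% on chip b.

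The mix of classes differs between HOX-positive and HOX-negative cells, so the sums were also taken within classes at day 60. Among Müller glia-like cells, the retinal identity genes summed to 1652 CPM in 48 HOX-positive and 2383 in 47 negative cells, and hindbrain and spinal cord genes to 75.8 and 38.7. Among Rods-like cells led by VSX1 the same sums were 1391 and 1928, and 109 and 26. Among Mitotic-like cells they were 1372 and 2104, and 46.1 and 21.1. The direction was thus the same in these 3 classes, and also in the GDF15 cluster (642 and 872, then 72 and 14.5). Genes of neurons of any kind differed as well, at 957 and 332 CPM in Müller glia-like, 959 and 588 in the GDF15 cluster and 518 and 483 in Mitotic-like cells, but 2832 and 4210 in Rods-like cells led by VSX1. The positive and negative cells of a class thus were not alike in neuronal genes, and the part of this in the other sums was not tested. The TALE partners summed to 1040 and 746 CPM in Müller glia-like and to 1090 and 542 in Mitotic-like cells.

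Of 13013 genes with reads in at least 5% of day 60 cells, other than HOX genes and the listed noncoding rows, the 10 whose level ran most closely with the number of HOX genes in a cell were LINC02381 (Pearson r = 0.61 over 578 cells), SKAP2 (0.58), SKAP1 (0.47), AC023794.2 (0.46), AC103702.1 (0.45), CHL1, ENC1, CYP26B1 and NOVA1 (each 0.43) and RUNX1T1 (0.41). All these points are cells of 1 chip. AC023794.2 and AC103702.1 were not placed in the annotation by these names, so whether they lie inside a HOX cluster was not checked. The leading 3 are neighbours of HOX clusters in GENCODE 44 on GRCh38. LINC02381, a long noncoding RNA, lies at chr12:54126019-54147485, 70 kb from HOXC4. SKAP2, an adaptor protein gene, lies at chr7:26667068-26995239, 105 kb from HOXA2, and its relative SKAP1 at chr17:48133442-48430275, 98.3 kb from HOXB1. Each of these genes lies beyond the low-numbered end of its cluster.

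These 3 neighbours ran with HOX genes at day 90 and on chip b as well, but not all of them on chip a. For LINC02381 r was 0.31 at day 90, 0.11 and 0.49 on chips a and b, for SKAP2 0.34, -0.04 and 0.52, and for SKAP1 0.24, 0.26 and 0.39. On chip a SKAP1 had reads in 5 of 356 cells. SKAP1 was at 204 CPM in HOX-positive and 1.42 in HOX-negative cells of day 60, SKAP2 at 261 and 20.0, and LINC02381 at 363 and 19.8. The pattern did not cover the whole neighbourhood. Of 29 ranked genes within 500 kb of a cluster, 4 had r above 0.2, namely these 3 and FLJ12825, 2.22 kb from HOXC, against 1.45% of the 11724 ranked genes with a position. The median r of the 29 was -0.01, beside 0.01 for all. MTX2 next to HOXD (78.5 kb) had r = 0.05, CALCOCO2 102 kb from HOXB -0.12 and SMUG1 65.2 kb from HOXC 0.02.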

How the data were processed

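Cells of retinal organoids at 3 days were captured on Fluidigm C1 HT chips and sequenced after SMART-Seq v4 amplification, without molecular identifiers. The deposited file holds raw counts of reads per gene and cell. Per the methods and the submitters' processing notes, the authors trimmed reads with Trimmomatic 0.33, aligned them with STAR 2.4.0 to GRCh38.p7 and counted them with HTSeq 0.6, with no strand setting stated, then filtered cells and genes. Cells were mapped to the 79 chip columns by the deposited cell table, and the columns to chips by their titles.

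Reads of HOX rows were divided by the reads of all rows other than the spike-in row, per chip, column, class or cell (CPM). Of 28 rows that fit the name pattern, 27 were in the listed set and 1 is not reported here. The members, gene lists and windows were chosen with earlier results of these data known. The neighbour search within 500 kb, the bins of HOX genes per cell, the count of at least 2 retinal genes and the promoter motifs were chosen after seeing the data.

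Fold changes used log2 of CPM with a pseudocount of 1 among genes with a mean of at least 1 CPM, and were called at 2-fold by size only, as no group had replicate chips that allow a test. Intervals (95%, exact Poisson and exact Clopper-Pearson binomial) cover counting error only. To count HOX genes per cell, cells were thinned to 50000 reads without replacement, with 6 cells of day 90 left out. Cells were clustered in Seurat 5.3.0 after log normalization and canonical correlation alignment of the days, with 1000 variable genes per day, 20 dimensions, resolution 0.6 and HOX rows left out. A class took the name of a marker list if at least 3 markers were in excess 2-fold with 5 CPM added to both sides and were seen in 20% of its cells, and if its own list led among the top 10 genes (the last requirement was added after seeing the clusters). Doublets were called with scrublet in scanpy 1.11.5 (1, 0, 22 and 2 cells) and kept. Each of the 1976 cells had its own pair of column and barcode. Named genes were all members, the 8 highest per kilobase at day 60 in full, examples of the fixed lists and the 10 other genes with the highest correlation. The fold step was tested on simulated chip sums of 24414 genes with counting noise only. It recovered 100 of 100 genes raised and 100 of 100 lowered 4-fold at each of the 3 comparisons. The changed genes all had at least 10 CPM at day 60. The simulation thus does not cover lower genes, changes near 2-fold or reads piled in single cells.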

Additional observations from a re-analysis of the deposited data

How the results depend on the processing

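Results were recomputed with other scaling (edgeR 4.0.16 TMM factors, a mean over cells, spike-in reads in the library size), other filters on cells and genes, other pseudocounts, other depths and cut-offs for HOX-positive cells, and other clusterings. The spike-in row held at most 0.0165% of the reads of any chip, so adding it could hardly move a value. Values that held under that setting therefore say nothing about stability. Of 225 recomputed values, 215 moved by less than the spread over the chip columns (for counts of genes, by less than 1.5 times, and for classes, within the binomial interval) and 10 moved by more. Only the log2 ratios to day 60 could change sign, since sums, shares and counts are never negative, and none of the ratios did. The columns of chip a ran from 0.212 to 379 CPM, so the spread allowed for its log2 ratio was wide. With the noncoding rows added, the day 60 sum was 1285 CPM. With at least 1 HOX gene in place of 3, the shares of cells were 73.2%, 27.8%, 15.4% and 46.2% at day 60, day 90, chip a and chip b. Without integration, where most clusters hold cells of 1 day, 72.5% of 149 RGCs-like cells of day 60 were HOX-positive. Of 4 Müller glia-like, 3 RPE-like and 2 cluster 7-like cells of day 60, 0.0% were. The Rods-like class led by VSX1 and the GDF15 and IGFBP6 clusters were not found without integration. With HOX genes kept among the variable genes, the IGFBP6 cluster had 14 cells of day 60, 14.3% of them HOX-positive. The log2 ratio of the HOX sum of day 200 to day 60 ranged from -2.89 (without chip b) to -1.35 (without chip a). The count of members at least 2-fold lower with both day 200 chips summed ranged from 11 (without chip a) to 17 (without chip b). Restricting the counts to genes above 0 on both chips, and the filter on the 3 later chips alone, were chosen after seeing the data. No paired analysis was possible because no result comes from a test. The depth of 50000 reads limits detection, a gene seen in fewer than 5 cells of a chip may be listed at 0, and day 60 and day 90 rest on 1 chip each.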

Other observations

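Among the genes ranked at day 60, those with the lowest correlation with the number of HOX genes in a cell, looked up after the highest had been seen, included SLC2A1, the main glucose transporter of many cells (r = -0.37 over 578 cells), at 416.0 CPM in HOX-positive and 1038 in HOX-negative cells. DAPL1 (-0.35) was at 192.0 and 629.0 CPM, RORB, a nuclear receptor of retinal progenitors and photoreceptor precursors (-0.35), at 173.0 and 325.0, and PTH2 (-0.35) at 121.0 and 472.0. Of the 10 lowest genes, RPS3AP47, RPL13P12 and RPL21P16 are ribosomal protein pseudogenes, near-identical copies whose counts are uncertain. These values are a description of 1 chip.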
